A study of Arabidopsis thaliana with 8 samples.

Results

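The genes described here are FTRB (AT2G04700), NTRC (AT2G41680), PRXIIE (AT3G52960) and GLDH (AT3G47930) of Arabidopsis thaliana, 4 of the 691 genes that have a probe naming that gene alone in this array series. They were chosen by name, for their place in thiol redox chemistry and ascorbate synthesis, and each has exactly 1 such probe. The RNA came from wild-type plants of the ecotype Columbia 0. In the high CO2 group (4 arrays) the plants had spent their last 1 d in air with 1% CO2 by volume. In the normal CO2 group (4 arrays), labelled 0 d, they had stayed at normal CO2. The labels name no control for that day, so high CO2, the elapsed day and the transfer of the plants cannot be told apart. The labels give no tissue, so no tissue was checked against markers. Nor do they say whether each array had its own plants, and the p-values reflect array-to-array spread alone, possibly a technical one.

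Chloroplast stroma enzymes are switched on and off through disulfide bonds, and electrons for opening these bonds arrive by separate routes. In the ferredoxin-dependent route, photosystem I reduces ferredoxin, and ferredoxin-thioredoxin reductase passes the electrons on to thioredoxins, which activate Calvin cycle enzymes in the light. FTRB is the catalytic subunit of that reductase. In the NADPH-dependent route, NTRC, a reductase and a thioredoxin in a single protein, draws on NADPH and is best known for feeding 2-Cys peroxiredoxins. PRXIIE is a plastid peroxiredoxin of another type, which breaks down peroxides with a reactive cysteine. GLDH, galactonolactone dehydrogenase, makes ascorbate in its final synthetic step. It sits in the mitochondrial inner membrane, so of the 4 proteins it is the one outside the plastid. Ascorbate then serves the plastid as an electron donor for peroxide removal.

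The deposited values are relative spot intensities from 0 to 100 for 3439 probes. Array medians ran from 0.212 to 0.28 at high CO2 and from 0.221 to 0.256 at normal CO2. Within a group, replicates 1 and 2, and replicates 3 and 4, were more alike (correlation across probes 0.887 to 0.962) than arrays from different sets (0.852 to 0.899), and the labels do not say what these sets are. Groups were compared with limma on log2 values after quantile normalization, over 3154 probes, with Benjamini-Hochberg adjustment over all of them and a threshold of 0.05. Log2 fold changes are high CO2 over normal CO2, so a negative one means a lower level at high CO2. All 4 genes were above 0 on all 8 arrays and were tested. In bulk RNA such as this, fewer cells of a type and less RNA per cell cannot be told apart.

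Of the 4 genes, 1 passed the threshold, FTRB, which fell. This is 25% of them, against 32.6% of all probes tested (18.3% lower and 14.3% higher), so the count does not stand out from the array as a whole. GLDH and NTRC had negative fold changes and PRXIIE a positive one, and none of these 3 passed.

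**Figure D1:**
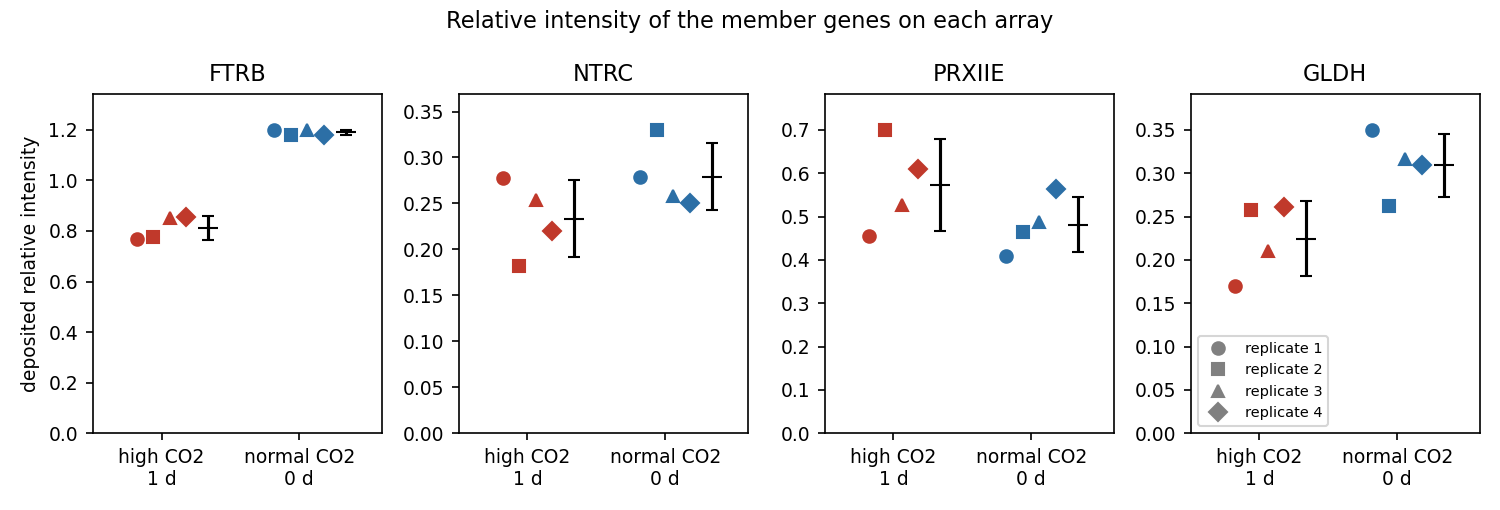
Deposited relative intensity (linear axis from 0, own scale for each gene) of FTRB, NTRC, PRXIIE and GLDH on each array, with high CO2 at 1 d in red and normal CO2 at 0 d in blue; marker shapes give the replicate, and the black bar beside each group its mean and SD (n = 4). FTRB lies between 0.768 and 0.857 at high CO2 and between 1.18 and 1.20 at normal CO2, while NTRC and PRXIIE overlap between the groups.

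FTRB had relative intensities of 0.768, 0.776, 0.852 and 0.857 on high CO2 arrays 1 to 4, against 1.20, 1.18, 1.20 and 1.18 on normal CO2 arrays 1 to 4. Every high CO2 array lay below every normal one, also after normalization. Of the 2932 tested probes above 0 on all arrays, 38.7% had groups that did not overlap, 21.9% with high CO2 below and 16.7% with high CO2 above. The means were 0.813 ± 0.0476 at high CO2 and 1.19 ± 0.01 at normal CO2 (SD, n = 4 each). After normalization FTRB fell by 0.63 on the log2 scale (SE 0.13, 95% interval -0.92 to -0.34, adjusted p = 0.00831 by limma), to 0.648 times its level at normal CO2. The fall itself was of ordinary size: 1493 probes changed more in either direction, and 88 of the 577 probes that fell did so by less. What set FTRB apart among the 4 was the small spread of its arrays. As deposited, its coefficient of variation was 5.85% at high CO2 and 0.844% at normal CO2. The median over all tested probes was 26.9% at high CO2 and 20.8% at normal CO2. The normalized log2 values of FTRB, on which the call rests, were -0.25, -0.24, -0.43 and -0.41 on high CO2 arrays 1 to 4. On normal CO2 arrays 1 to 4 they were 0.24, 0.22, 0.38 and 0.34.

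The call on FTRB depended on whether changes shared with probes of nearby numbers were taken out. Whether the numbers follow the layout of the array is not stated in the labels. The 47 tested probes within 25 places of FTRB had a median log2 fold change of -0.25, against -0.16 for all probes. With a running median along the probe numbers subtracted from each array, the value for FTRB was -0.38 (SE 0.17, adjusted p = 0.123 by limma). FTRB still passed when limma was given 1 shared correlation for replicates 1 and 2, and for replicates 3 and 4, of a group (the random block, adjusted p = 0.0402), where 14% of all probes passed, 6.56% lower and 7.45% higher. Averaging those pairs, which leaves 2 values per group, ended the call (adjusted p = 0.243 by limma). In that setting 0 of the 3154 probes passed, so missing the adjusted threshold there was not particular to FTRB. Before adjustment, however, limma put 775 of the 3154 probes under 0.05 in that setting, and FTRB, at 0.075, was not among them. Arrays 1 and 2 alone gave a log2 fold change of -0.48 (adjusted p = 0.0669) and arrays 3 and 4 alone one of -0.78 (adjusted p = 0.0293). The difference between the sets was -0.30 (SE 0.15, adjusted p = 0.257 for the interaction by limma).

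NTRC had relative intensities of 0.278, 0.182, 0.254 and 0.22 on high CO2 arrays 1 to 4, against 0.279, 0.33, 0.258 and 0.25 on normal CO2 arrays 1 to 4. As deposited, the groups overlapped, with high CO2 arrays 1 and 3 inside the normal range and high CO2 arrays 2 and 4 below it. The means were 0.233 ± 0.0419 at high CO2 and 0.279 ± 0.0361 at normal CO2 (SD, n = 4 each). The fitted change was -0.34 on the log2 scale (SE 0.18, 95% interval -0.76 to 0.09, adjusted p = 0.195 by limma), which spans a level of 0.59 to 1.06 times that at normal CO2. A single array held much of this spread: without high CO2 replicate 1 the value was -0.49 and passed (adjusted p = 0.0396 by limma). Arrays 1 and 2 gave -0.20 and arrays 3 and 4 gave -0.47. Unlike for FTRB, subtracting the running median hardly moved the value (-0.36), and the 50 tested neighbours had a median of -0.13.

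The ferredoxin-dependent and NADPH-dependent routes were contrasted within each array through a single transcript each, as log2 FTRB minus log2 NTRC. The activity of the routes was not measured. Only the change of this difference between groups can be read, since the brightness of separate probes is not comparable. It was 1.44, 2.05, 1.80 and 2.01 on high CO2 arrays 1 to 4 and 2.15, 1.89, 2.19 and 2.23 on normal CO2 arrays 1 to 4. Normal arrays 1, 3 and 4 lay above every high CO2 array, and normal array 2 lay among them. The mean was 1.83 ± 0.28 at high CO2 and 2.12 ± 0.16 at normal CO2 (SD, n = 4 each), so the difference shifted by -0.29 (SE 0.16). The exact permutation test over the 70 assignments of arrays gave p = 0.114 (two-sided, smallest possible 0.0286), and 0.214 after adjustment over the 6 pairs of genes. Shifts from -0.78 to 0.16 could not be rejected at 0.05 by the same test. That test treats the arrays as exchangeable and takes no account of the greater likeness within sets of arrays. For all 6 pairs of genes its p-values may thus be too small and its intervals too narrow. FTRB passing its test and NTRC missing it therefore does not show that these transcripts responded differently. Without high CO2 replicate 1 the shift was -0.15, and with the running median subtracted it was -0.02.

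**Figure D2:**
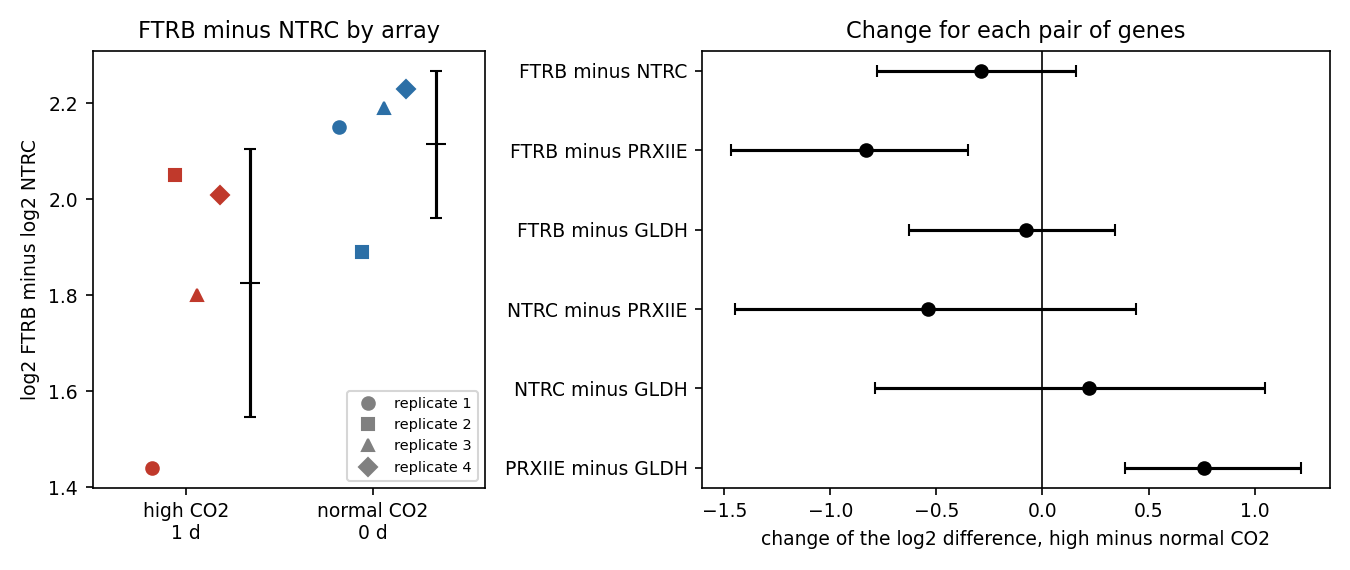
Left, log2 FTRB minus log2 NTRC on each array after quantile normalization, high CO2 in red and normal CO2 in blue, marker shapes for replicates and black bars for mean and SD (n = 4). Right, the change of the within-array log2 difference (high minus normal CO2) for all 6 pairs of genes, with bars spanning the shifts that the exact permutation test did not reject at 0.05; the bars of FTRB minus PRXIIE and PRXIIE minus GLDH do not reach 0.

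PRXIIE had relative intensities of 0.456, 0.7, 0.526 and 0.609 on high CO2 arrays 1 to 4, against 0.41, 0.464, 0.488 and 0.563 on normal CO2 arrays 1 to 4. The groups overlapped, and high CO2 array 2 was the highest of the 8. The means were 0.573 ± 0.105 at high CO2 and 0.481 ± 0.0634 at normal CO2 (SD, n = 4 each), and the fitted change was 0.21 on the log2 scale (SE 0.22, 95% interval -0.30 to 0.72, adjusted p = 0.495 by limma). The sign differed between the sets of arrays: replicates 1 and 2 gave 0.61, replicates 3 and 4 gave -0.20. The difference of -0.81 (SE 0.33) did not pass as an interaction (adjusted p = 0.174 by limma). Without high CO2 replicate 2 the log2 fold change was 0.05 and without normal CO2 replicate 1 it was 0.10.

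GLDH had relative intensities of 0.17, 0.257, 0.21 and 0.261 on high CO2 arrays 1 to 4, against 0.35, 0.262, 0.316 and 0.309 on normal CO2 arrays 1 to 4. As deposited, every high CO2 array lay below every normal one, but only just, since high CO2 array 4 and normal array 2 all but touch. After quantile normalization the groups overlapped, with high CO2 array 2 at -1.79 and normal array 2 at -1.97 on the log2 scale. The means were 0.225 ± 0.0433 at high CO2 and 0.309 ± 0.036 at normal CO2 (SD, n = 4 each). The fitted change was -0.55 on the log2 scale (SE 0.20, 95% interval -1.01 to -0.09), close to that of FTRB in size, yet with an unadjusted p of 0.0249 it missed the threshold (adjusted p = 0.0677 by limma). It passed without high CO2 replicate 2 (-0.69, adjusted p = 0.0277 by limma) and with the dimmest 25% of probes left out (adjusted p = 0.046 by limma).

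Many probes with numbers near that of GLDH fell. Of the 49 tested probes within 25 places of it, 19 fell and 3 rose, and their median log2 fold change was -0.47. With the running median along the probe numbers subtracted, GLDH was at -0.17 (SE 0.23, adjusted p = 0.607 by limma). Arrays 1 and 2 alone gave -0.33, and arrays 3 and 4 alone gave -0.77.

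**Figure D3:**
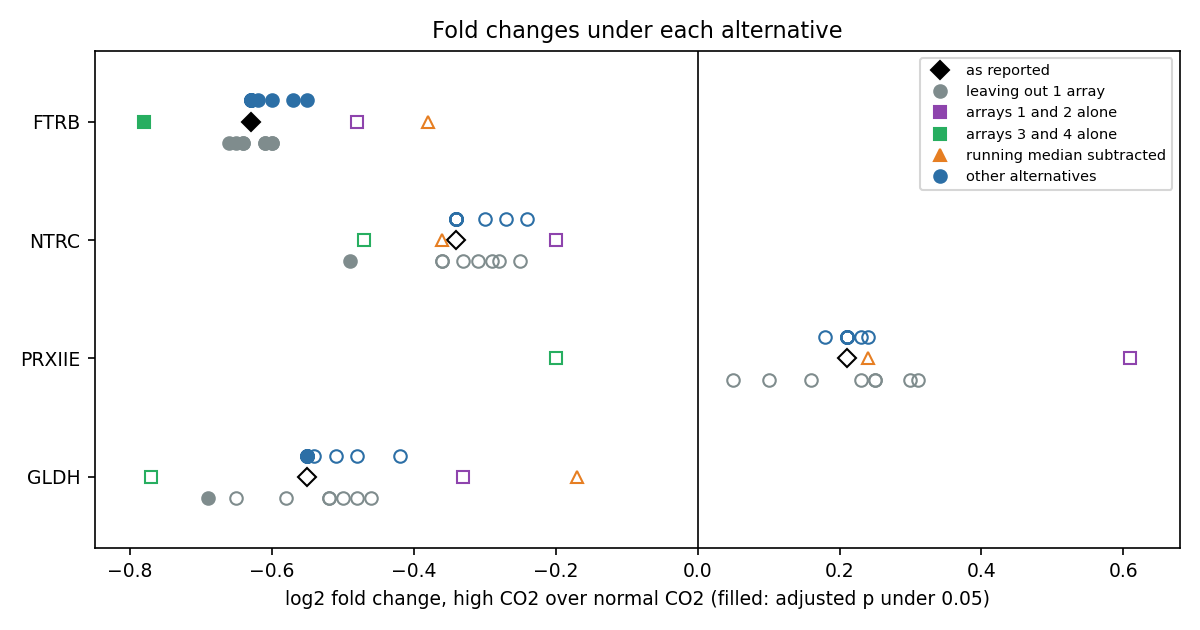
Log2 fold change (high CO2 over normal CO2) of each gene as reported and under 21 alternatives, with filled markers where the adjusted p was under 0.05. FTRB stays between -0.78 and -0.38, NTRC between -0.49 and -0.20 and GLDH between -0.77 and -0.17, whereas PRXIIE lies on both sides of 0 (-0.20 to 0.61).

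Of the 6 pairs of genes, the largest shifts within arrays were those of PRXIIE against FTRB and against GLDH. PRXIIE minus GLDH was 1.37 ± 0.10 at high CO2 and 0.61 ± 0.28 at normal CO2 on the log2 scale (SD, n = 4 each). This shift of 0.76 (SE 0.15) separated the groups fully, with an exact permutation p of 0.0286, the smallest this design allows, and 0.0858 after adjustment over the 6 pairs. FTRB minus PRXIIE was 0.52 ± 0.28 at high CO2 and 1.35 ± 0.23 at normal CO2 (SD, n = 4 each), a shift of -0.83 (SE 0.18), also with an exact p of 0.0286 and 0.0858 after adjustment. Neither pair passed after adjustment, and the share of all pairs of probes that separate the groups was not computed. With the other pairs as they were, larger shifts in these pairs could not have passed either, since their exact p was already the smallest possible. Since the groups did not overlap in these pairs, each set of arrays had to give the same sign. PRXIIE minus GLDH shifted by 0.94 in replicates 1 and 2 and by 0.57 in replicates 3 and 4. FTRB minus PRXIIE shifted by -1.09 and -0.58 in the same order. With the running median subtracted PRXIIE minus GLDH shifted by 0.42 (exact p = 0.0571). The groups overlapped in the other pairs. FTRB minus GLDH shifted by -0.08 (exact p = 0.657, shifts of -0.63 to 0.34 not rejected), NTRC minus PRXIIE by -0.54 (exact p = 0.143) and NTRC minus GLDH by 0.22 (exact p = 0.571).

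The wider pathway was thinly covered. Lists of 114 genes, made up of ferredoxins and thioredoxin reductases, thioredoxins, thiol peroxidases and repair enzymes, ascorbate synthesis, the ascorbate and glutathione cycle, and thioredoxin-regulated plastid enzymes, had 9 genes on a single-gene probe, the 4 above among them. None of the 24 thioredoxins and none of the 28 genes of the ascorbate and glutathione cycle and of scavenging had one, so the thioredoxins that carry electrons from FTRB to its targets were not analysed here. Of the 9 genes tested, 3 fell, 0 rose and 6 did not pass in the limma fit, a share close to the 32.6% of all probes called (18.3% lower, 14.3% higher). Under the random block 1 of the 9 passed, FTRB, against 14% of all probes. Before adjustment 6 of the 9 had a p under 0.05, 5 with a lower level at high CO2 and 1 with a higher one, as had 1413 of the 3154 probes. That count was 3 of 9 under the random block, against 973 of the 3154 probes. It was also 3 of 9 with the running median subtracted, against 1289 of the 3154 probes. The median log2 fold change of the 9 was -0.55, against -0.16 over all probes.

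**Figure D4:**
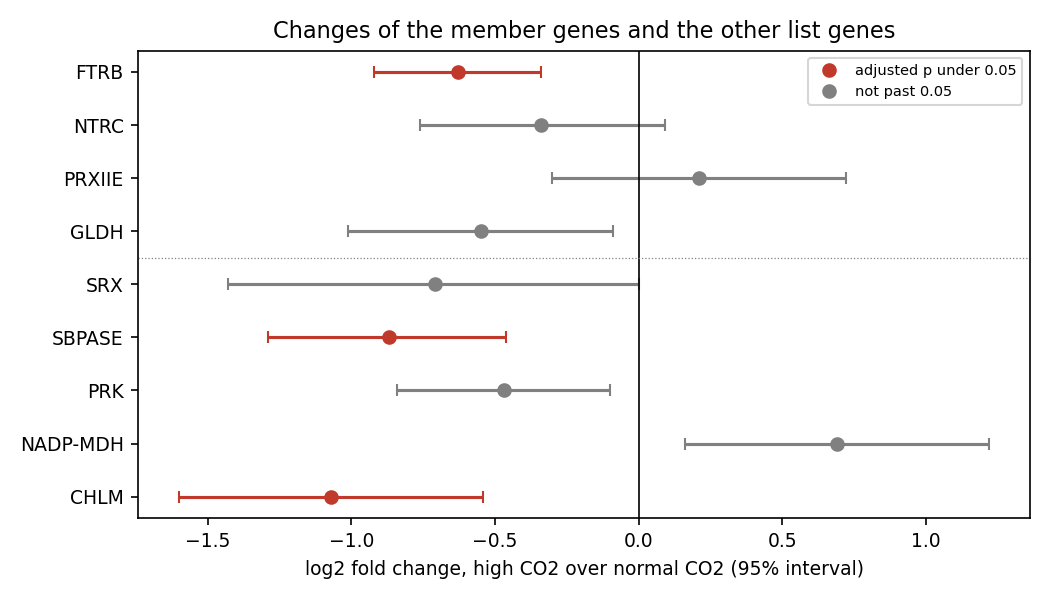
Log2 fold change (high CO2 over normal CO2) with 95% interval from limma for the 4 genes, above the dotted line, and the other 5 genes of the redox and ascorbate lists, below it; red marks an adjusted p under 0.05. FTRB (-0.63), SBPASE (-0.87) and CHLM (-1.07) passed, and NADP-MDH (0.69) and PRXIIE (0.21) are the points right of 0.

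Among the enzymes that thioredoxins are known to regulate, 2 of 4 fell, where 18.3% of all probes fell. Under the random block 0 of the 4 passed, where 14% of all probes did. Before adjustment, 2 of the 4 had a p under 0.05 in that limma fit, as had 973 of the 3154 probes. SBPASE, the Calvin cycle bisphosphatase activated by thioredoxin f, had 0.331, 0.408, 0.461 and 0.344 on high CO2 arrays 1 to 4, against 0.705, 0.83, 0.633 and 0.547 on normal CO2 arrays 1 to 4. As deposited, the groups did not overlap. After normalization, 21.9% of the 2932 tested probes above 0 on all arrays had every high CO2 array below every normal one. SBPASE fell by 0.87 on the log2 scale (SE 0.18, limma adjusted p = 0.00901). CHLM, a methyltransferase of chlorophyll synthesis, averaged 0.188 ± 0.031 at high CO2 and 0.381 ± 0.0899 at normal CO2 (SD, n = 4 each), and fell by 1.07 on the log2 scale (SE 0.23, limma adjusted p = 0.0102). Under the random block the adjusted p was 0.0701 for SBPASE and 0.0536 for CHLM by limma. With the running median subtracted, which ended the call of FTRB, both still passed (adjusted p = 0.0134 for SBPASE and 0.0356 for CHLM by limma).

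The other regulated enzymes lay on opposite sides of 0. PRK, phosphoribulokinase, had 1.46, 1.46, 1.53 and 1.30 on high CO2 arrays 1 to 4, against 2.09, 2.07, 1.71 and 1.43 on normal CO2 arrays 1 to 4, with normal array 4 inside the high CO2 range. The fitted change was -0.47 on the log2 scale (SE 0.16, limma adjusted p = 0.0548). PRK passed in 6 of 21 alternatives, among them the fit without normal CO2 replicate 4 (adjusted p = 0.0373 by limma). It did not pass without normalization of the deposited values (-0.33, adjusted p = 0.181), with the running median subtracted (-0.31, adjusted p = 0.313) or under the random block (adjusted p = 0.182). NADP-MDH, the malate dehydrogenase that exports surplus reducing power from the plastid as malate, had 0.859, 0.922, 0.803 and 0.724 on high CO2 arrays 1 to 4, against 0.452, 0.624, 0.568 and 0.352 on normal CO2 arrays 1 to 4. As deposited, every high CO2 array was above every normal one. After normalization that held for 16.7% of the 2932 tested probes above 0 on all arrays. NADP-MDH had a fitted change of 0.69 on the log2 scale (SE 0.23, limma adjusted p = 0.051). It passed in 8 of 21 alternatives. Among these were the values as deposited (0.76, adjusted p = 0.0299 by limma) and the fits without high CO2 replicate 4 (0.80, adjusted p = 0.043) or without normal CO2 replicate 3 (0.79, adjusted p = 0.0488). NADP-MDH did not pass under the random block (adjusted p = 0.215) or with the running median subtracted (0.67, adjusted p = 0.0933), and replicates 1 and 2 gave 0.93 where replicates 3 and 4 gave 0.45.

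SRX, the sulfiredoxin that restores overoxidised 2-Cys peroxiredoxins, was the other gene of the peroxidase list. It had 0.161, 0.157, 0.102 and 0.0959 on high CO2 arrays 1 to 4, against 0.261, 0.204, 0.156 and 0.161 on normal CO2 arrays 1 to 4. The groups overlapped, while within each set of arrays the high CO2 ones were the lower. The fitted change was -0.71 on the log2 scale (SE 0.31, limma adjusted p = 0.113). SRX passed when the set was fitted as a fixed block (adjusted p = 0.0235 by limma) and in arrays 3 and 4 alone (-1.08, adjusted p = 0.0199 by limma). In arrays 1 and 2 alone it was at -0.35 (adjusted p = 0.213), and it did not pass under the random block (adjusted p = 0.202). With pairs of arrays averaged its adjusted p was 0.379 by limma, in a setting where 0 of the 3154 probes passed.

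For each of the 4 genes, the 3 most similar patterns over the 8 arrays were looked up among 570 other single-gene probes above 0 throughout, by Pearson's r of the normalized log2 values. These are descriptions over arrays that share 2 groups and 2 sets. FTRB was most like AT1G79220 (0.992), AT2G33180 (0.989) and LPA19 (0.988), an assembly factor of photosystem II, and these all fell, with log2 fold changes of -1.40, -1.28 and -1.05. LPA19 had 0.549, 0.593, 0.576 and 0.53 on high CO2 arrays 1 to 4, against 1.13, 1.15, 1.07 and 1.09 on normal CO2 arrays 1 to 4. Choosing genes by likeness to FTRB favours those that fell with narrow groups, so neither trait adds support. NTRC was most like AT1G01250 (0.959), AT3G47980 (0.922) and AT4G08280 (0.911). In AT1G01250, high CO2 array 1 was at 0.109 and the other high CO2 arrays at 0.0139 to 0.0367, under the percentile 10 of positive values (0.0549). Choosing genes by likeness to NTRC favours a high array 1, so this adds no support for it. PRXIIE was most like AT3G47100 (0.895), Cpn60beta3 (0.878), a subunit of the plastid chaperonin, and AT1G44920 (0.858), and GLDH was most like AT3G44810 (0.977), AT1G25500 (0.92) and DAL1 (0.917). None of the genes most like NTRC, PRXIIE or GLDH passed the threshold, with adjusted p-values of 0.0813 to 0.873 by limma.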

How the data were processed

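Arrays were grouped by title into 4 high CO2 and 4 normal CO2 arrays. The authors deposited 1 table of relative spot intensity values on a linear scale; its upper limit of 100 is reached on every array. Background treatment, normalization, array type and software are not given in the sources, and the absolute scale stays unknown.

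Zeros were set to missing. Log2 values were then quantile normalized between arrays, and probes with at least 3 values per group were kept, 3154 in number. The fit used limma 3.58.1 (R 4.3.3), functions lmFit and eBayes, with two-sided tests. The number of arrays limits the precision. Means and SDs are of deposited intensities. Pairs of genes were compared by the exact permutation test over arrays, and the intervals are the shifts it did not reject. It took no account of the sets of arrays. Plots used matplotlib 3.10.9 under Python 3.11.15. The fit was tested on simulated data with independent noise on each array, so its behaviour under the likeness within sets was not tested.

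The platform annotation gave 1 gene to 692 probes, 690 of them matched by gene identifier to the RefSeq table of assembly TAIR10.1. FTRB and PRXIIE stand there by locus tag. DAL1 was not matched and keeps the annotation's name. No coordinates or sequences are given, since the sources tie the probes to no genome build. Each gene has 1 such probe, so probes were not checked against each other.

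The 4 genes, the gene lists and the tests were chosen with earlier results of these data known. Named were the 4 genes, every list gene with a tested single-gene probe, and for each of the 4 genes the 3 genes of most similar pattern. Alternatives were other scalings (median centring, or none beyond the deposited values), dim values floored at the percentile 5 or raised by a pseudocount of 0.0549 (the percentile 10 of positive values), a filter on the dimmest 25% of probes, robust variances with a trend, blocks for replicate number, for pairs of arrays and for array set, each set alone, a running median over 51 probes along the probe numbers, and leaving out each array.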

Additional observations from a re-analysis of the deposited data

Results flagged for a closer look

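Of 8 groups of 4 arrays, 1 held an outlying array, and chance alone flags about 1 group in 20. For GLDH at normal CO2, replicate 2 was at -1.97 on the normalized log2 scale and the other arrays at -1.59 to -1.52, so that the gap took up 0.84 of the group's range. Without that array the log2 fold change of GLDH was -0.65 (adjusted p = 0.0597 by limma).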

How the results depend on the processing

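Averaging the pairs of arrays and the alternatives for list genes other than the 4, and for pairs of genes other than FTRB and NTRC, were chosen after seeing the data. Of all probes, 1029 passed (452 higher, 577 lower), 886 with the values as deposited (499 higher, 387 lower), 442 under the random block for the pairs, and 0 with pairs averaged (775 at an unadjusted p under 0.05). Leaving out each array gave 730 to 914. FTRB missed the threshold in arrays 1 and 2 alone (-0.48, adjusted p = 0.0669 by limma), with the running median subtracted (-0.38) and with pairs averaged (-0.63, adjusted p = 0.243). It passed in the other 18 of 21 alternatives, at -0.66 to -0.60 without single arrays. NTRC ranged from -0.49 to -0.25 without single arrays and passed there once. PRXIIE turned to -0.20 in arrays 3 and 4 alone. GLDH passed without the dimmest probes (-0.55) and ranged from -0.69 to -0.46 without single arrays. FTRB minus GLDH ranged from -0.16 to 0.05 without single arrays, and NTRC minus GLDH from -0.01 to 0.40, turning to -0.18 with the running median subtracted. FTRB minus NTRC ranged from -0.37 to -0.02 over 17 alternatives, of which 5 were tested (exact p = 0.0857 to 0.857). The replicate block and the fixed block for the sets leave this value unchanged by design. Of the 9 list genes, 3 passed, where 32.6% of all probes did. With the floor, the pseudocount or the trended robust variance 5 passed, where 32%, 33.1% and 35.3% of all probes did. Without dim probes or under the fixed block for the sets 6 passed, where 42.7% and 38.7% of all probes did. With the random block or in arrays 1 and 2 alone 1 passed, where 14% and 29.3% of all probes did. With pairs averaged 0 passed (2 at an unadjusted p under 0.05), as for all probes. The cause was not tested. Across the groups, arrays of 1 number deviated together with correlations of 0.064, 0.1, 0.129 and 0.071, so the numbers were not taken as pairing. With the replicate block 845 probes passed, and FTRB at -0.63 still did (adjusted p = 0.0395 by limma).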
